A study of Columba livia with 19 samples.

Results

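Recessive red pigeons homozygous for the e1 allele were compared with wild-type pigeons (Columba livia) in the birds sequenced in 2017, which the labels call batch 1. The comparison holds 7 of the 19 birds in the series, 3 homozygous e1 birds (e1 1, 3 and 4) and 4 wild-type birds (wild type 1 to 4), chosen by their labelled genotype and batch. The series also holds birds homozygous for the e2 allele (e2 birds) and a heterozygous wild-type/e1 bird (the carrier), which entered no fit. The labels give no age or sex. Several secondary flight feathers of each bird were plucked and regrown for 9 to 10 days, and polyadenylated RNA was taken from the collar, within the proximal 4 to 5 mm of the pigmented feather, after the dermal pulp was removed. The bird is the replicate.

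The collar is the ring of growing epidermis at the base of a feather, where melanocytes pass pigment granules to keratinocytes. Wild-type feathers carry black to brown eumelanin, and recessive red feathers carry red to yellow pheomelanin. SOX10 is a transcription factor on which melanocytes, which derive from the neural crest, depend, and in vertebrates it acts with MITF on genes of the melanin pathway. The e1 allele is a deletion upstream of SOX10 that removes regulatory sequence. The comparison asked which collar transcripts differ between e1 and wild-type birds. The deposited table identifies genes by numbered tags that none of the sources used here pair with gene names, so SOX10 and the melanin genes were not analysed here and genes are described by level and by change.

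Libraries of batch 1 held 18452980 to 23168538 counts in e1 birds and 15090167 to 22014628 counts in wild-type birds. Total counts and the number of detected genes did not differ beyond the spread between birds (exact permutation tests, two-sided, p = 0.743 and 0.4, adjusted p = 0.743 and 0.533 over 4 library measures). The 10 most abundant genes of a library took 7.35 ± 0.364% of its counts in e1 birds (SD, n = 3) and 8.15 ± 0.256% in wild-type birds (SD, n = 4), and the 100 most abundant took 28.1 ± 0.758% and 30.4 ± 1.56% in the same groups. In both measures every e1 bird lay below every wild-type bird, which gives the smallest p that 3 against 4 birds allow (exact permutation tests, two-sided, p = 0.0571 each, adjusted p = 0.114). On the leading principal component of these 7 libraries, which held 34.8% of the variance, e1 birds lay at -30.6, -11.4 and -33.4 and wild-type birds at 8.28, 0.641, 25.9 and 40.6.

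Almost all genes called in batch 1 were lower in e1 collars. Of 12693 genes tested, 58 were lower and 1 was higher in e1 (edgeR quasi-likelihood test, adjusted p under 0.05), which is 0.457% and 0.00788% of the genes tested. The log2 fold changes of the lower genes ran from -12.08 to -0.65 with a median of -2.35, while the median over all tested genes was 0.01 and 90 in 100 of them lay between -0.54 and 0.48. In all 58 lower genes each of the 3 e1 birds stood below each of the 4 wild-type birds. These genes were called for a difference in the same birds, so the separation is a description. Of all tested genes, 4.37% had e1 below wild type with no overlap and 2.57% had e1 above. RNA of a whole collar cannot tell fewer cells of a type from less RNA per cell.

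**Figure D1:**
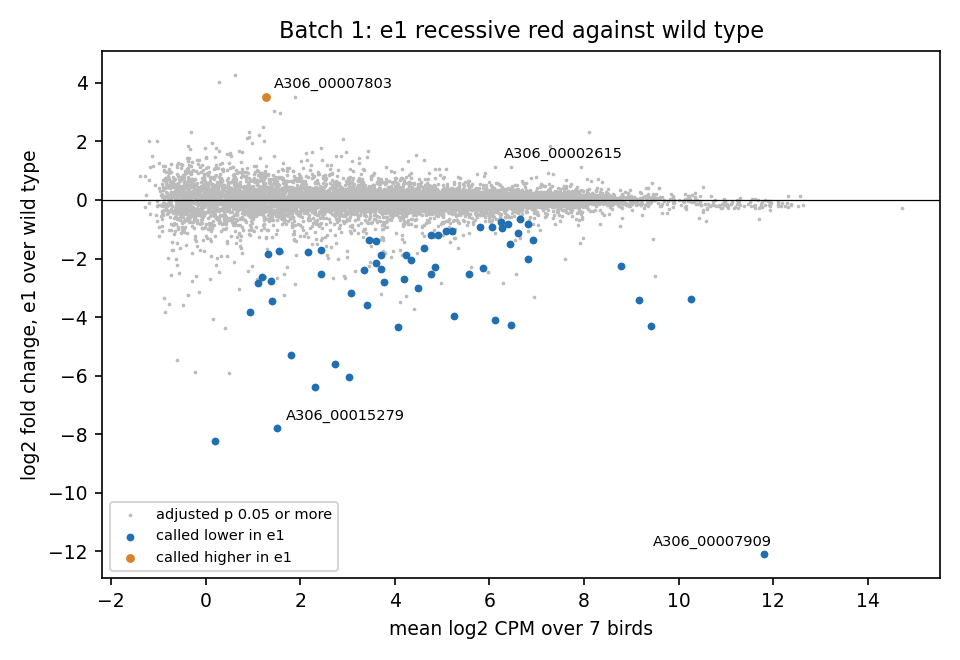
Each point is 1 of the 12693 genes tested in batch 1, with its mean log2 CPM over 7 birds on the x axis and its log2 fold change, e1 over wild type, on the y axis. Genes called lower in e1 (58, blue) reach -12.08, and the gene called higher (1, orange) stands at 3.53.

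The excess of lower genes in batch 1 did not rest on the threshold alone. At an unadjusted p under 0.05, 595 genes were lower and 292 higher in e1 (edgeR), together 6.99% of the genes tested. Between adjusted p values of 0.05 and 0.1 stood 39 lower and 4 higher genes. DESeq2 called 206 lower and 27 higher genes, and limma-voom with quality weights 107 and 7. Regardless of p, 87 genes had a fitted change of at least 4-fold downwards and 17 of at least 4-fold upwards. A stricter separation, with the lowest wild-type bird at least 2 times the highest e1 bird, was met by 55 genes. The reverse, with the lowest e1 bird at least 2 times the highest wild-type bird, was met by 4. All these counts come from the same 7 birds and overlap with the calls. Of the 58 genes called lower, 35 had the 4-fold fall and 43 met the stricter separation. Genes with a 4-fold rise in the fit were scarce transcripts with a median of 1.14 mean log2 CPM, against 2.81 for those with a 4-fold fall and 4.69 for all tested genes.

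The largest change was in A306_00007909, an abundant collar transcript of wild-type birds. It stood at 0.913, 1.36 and 2.02 CPM in e1 birds 1, 3 and 4, against 6989.5, 5366.5, 5168 and 7473 CPM in wild-type birds 1 to 4. The e1 birds had 17, 32 and 40 counts, while wild-type birds held 76450 to 149236. By mean CPM it ranked 11534 of 12693 tested genes in e1 and 4 in wild type. Its log2 fold change was -12.08 (SE 0.34; adjusted p = 4.31e-07, edgeR), with a 95% interval of -12.85 to -11.32. In wild type this gene alone took 0.507 to 0.719% of all counts.

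A306_00015279 was a scarce transcript that was almost undetected in e1 collars. Its counts were 0, 1 and 0 in e1 birds 1, 3 and 4, against 80, 128, 65 and 81 in wild-type birds 1 to 4. Scaled to total counts, wild type was 278 times e1, with a 95% counting interval of 49.5 to 10998. That interval covers counting error only. The fit gave a log2 fold change of -7.80 (SE 0.79; adjusted p = 0.00223, edgeR), a value that shifts with the prior count. A further gene had 0 counts in all 3 e1 birds, the only tested gene of which that is true, and 17 to 66 counts in the wild-type birds, which makes it at least 36.9-fold lower in e1 if the e1 group is set at a floor of 3 counts.

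The lower genes were spread over a wide range of loss. The mean CPM in e1 was a median 19.5% of the wild-type mean over the 58 genes. It was under 1% in 3 genes, under 10% in 17 and above 50% in 7, the highest being 63.9%. Of the 3 genes under 1%, 2 had at most 3 counts in all over the e1 birds, so those shares are loosely known. These shares describe genes that were called for that difference. In 12 of the 58 genes the e1 mean was under 1 CPM.

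Split by size of change, 11 genes fell at least 16-fold, 24 fell 4- to 16-fold, 16 fell 2- to 4-fold and 7 fell less than 2-fold. The 11 genes with the deepest loss had a median of 0.224 CPM in e1 and 13.9 CPM in wild type, and a median log2 fold change of -5.61, or -5.30 with the gene at 0 counts set at its bound. The 24 genes of the next class had medians of 4.10 CPM in e1 and 25.2 CPM in wild type. For the 16 genes of the 2- to 4-fold class the medians were 9.19 CPM in e1 and 31.0 CPM in wild type. The 7 genes with under 2-fold change had medians of 54.3 CPM in e1 and 97.0 CPM in wild type, with no member under 70.2 CPM in wild type.

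The precision of a change depended on the level of its gene. Among 2001 genes of at least 100 CPM in wild type, 14 were lower (0.7%) and the median half-width of the 95% interval was 0.27 log2 units. Among 6888 genes of 10 to 100 CPM, 30 were lower (0.436%), with a median half-width of 0.34. Among 3008 genes of 1 to 10 CPM, 14 were lower (0.465%), with a median half-width of 0.71. In the 796 genes under 1 CPM in wild type the median half-width was 1.11 log2 units, and the calls were 0 lower and 1 higher. Because the classes use the wild-type level, a gene lower in e1 had little room to be called in this class. For 10016 genes (78.9% of those tested) the whole interval lay within 1 log2 unit of 0, so a change of 2-fold or more fell outside it. The intervals are not adjusted for the number of genes.

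The most abundant transcripts of the collar mostly changed little. Of the 100 most abundant genes in e1 and the 100 in wild type, 94 were shared. Of the wild-type 100, 98 had an absolute log2 fold change under 1, with a median of 0.15 over the 100. The exceptions were A306_00007909 and 1 other lower gene, at 185, 295 and 101 CPM in e1 birds 1, 3 and 4 and 2016, 2081, 1181 and 2744 CPM in wild-type birds 1 to 4. That gene ranked 794 by mean CPM in e1 and 65 in wild type, with a log2 fold change of -3.37 (SE 0.41; adjusted p = 0.00925, edgeR). Of the 500 most abundant wild-type genes 5 were called lower, where 0.457% of all tested genes were. A ranking by wild-type level favours genes that are lower in e1. The lower genes numbered 2 among the wild-type 100 and 0 among the e1 100.

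As a share of each library, the 58 lower genes took 0.122, 0.160 and 0.118% of the counts in e1 birds 1, 3 and 4, against 1.48, 1.10, 1.11 and 1.60% in wild-type birds 1 to 4. Without A306_00007909 the other 57 took 0.122, 0.160 and 0.117% in the e1 birds and 0.760, 0.595, 0.591 and 0.887% in the wild-type birds. The lower genes were chosen for this difference in the same birds. With A306_00007909 taken out of every library, the 10 most abundant genes still took less in each e1 bird, 6.93 to 7.59%, than in any wild-type bird, 7.79 to 8.46%. In batch 2 the same share averaged 6.13 ± 0.866% in e1 (SD, n = 3) and 5.97 ± 0.312% in wild type (SD, n = 5), so the e1 mean was not below wild type there.

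**Figure D2:**
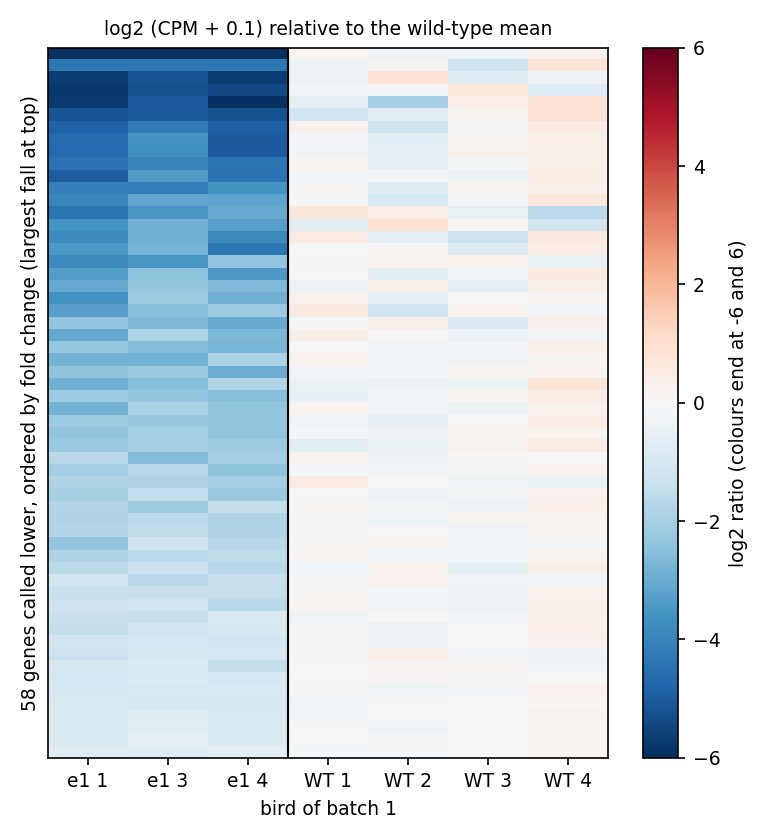
Columns are the 7 birds of batch 1 and rows are the 58 genes called lower, ordered by fold change. Colour gives log2 (CPM + 0.1) relative to the wild-type mean of the gene, and the e1 columns are below 0 in every row because these genes were chosen for that difference.

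Within each group the birds were not alike in these genes. Relative to the wild-type mean, the median log2 ratio over the 58 genes was -2.38, -2.20 and -2.36 in e1 birds 1, 3 and 4, and -0.03, -0.16, -0.09 and 0.26 in wild-type birds 1 to 4. Bird e1 3 was the highest of the 3 e1 birds in 37 of the 58 genes and in 37.4% of all tested genes. Wild-type bird 4 was the highest of the 4 in 41 of the 58 genes and in 25.1% of all tested genes. The SD of log2 (CPM + 0.5) between birds had a median over the 58 genes of 0.23 in e1 and 0.31 in wild type. Over all tested genes the median was 0.18 in e1 and 0.22 in wild type. The added 0.5 flattens the spread of low values, and 12 of the 58 genes had an e1 mean under 1 CPM.

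The gene called higher, A306_00007803, was rare in wild type. It stood at 3.22, 6.02 and 5.04 CPM in e1 birds 1, 3 and 4, from 60, 142 and 100 counts, against 0.352, 0.842, 0.410 and 0.1001 CPM in wild-type birds 1 to 4, from 2 to 12 counts. The groups did not overlap, and the log2 fold change was 3.53 (SE 0.51; adjusted p = 0.0161, edgeR), with a 95% interval of 2.40 to 4.66. The call was lost without e1 bird 4 (edgeR, adjusted p = 0.0734), without wild-type bird 1 (0.0515) and without wild-type bird 3 (0.0662), and the adjusted p ranged from 2.01e-09 to 0.0734 over the alternatives tried. The log2 fold change stayed between 3.19 and 4.04 in these alternatives.

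The next higher gene under the naming rule, A306_00002615, did not pass the test. It stood at 71.2, 139 and 92.4 CPM in e1 birds 1, 3 and 4, against 41.4, 55.5, 46.5 and 40.2 CPM in wild-type birds 1 to 4. Each e1 bird was above each wild-type bird, and e1 bird 3 was the highest. Its log2 fold change was 1.14 (SE 0.22; adjusted p = 0.0792, edgeR). The adjusted p was 0.0337 without e1 bird 1 and 0.0495 without e1 bird 3, and ranged from 1.71e-04 to 0.268 over the alternatives.

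**Figure D3:**
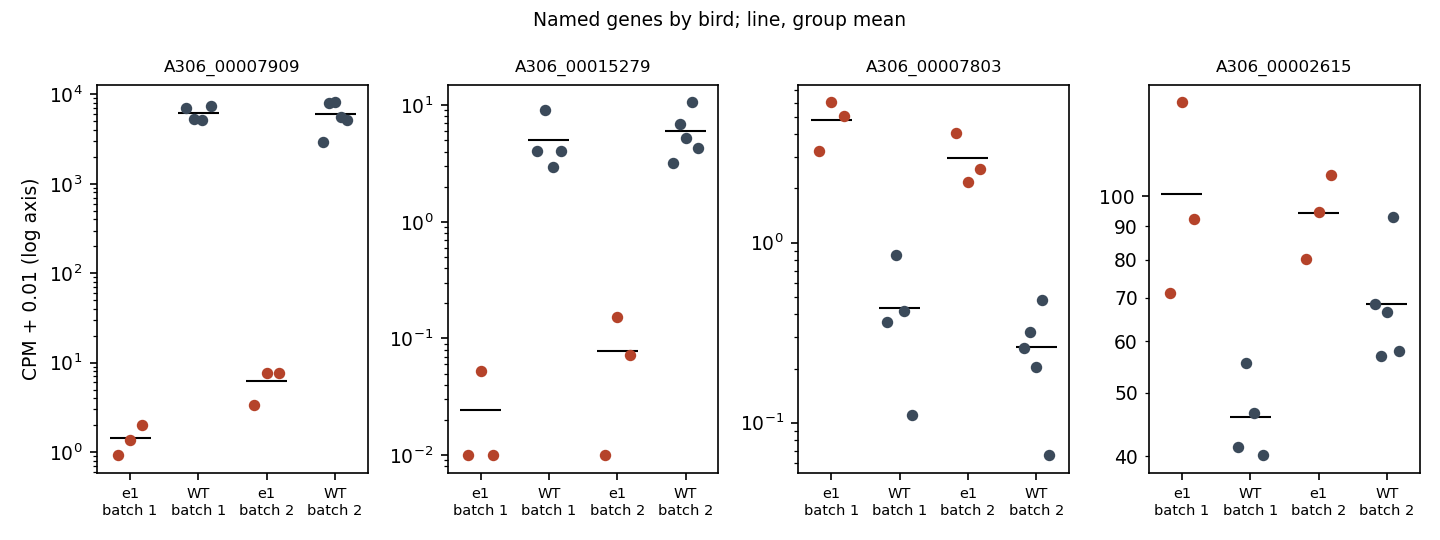
Each panel is 1 gene, each point 1 bird and each line the group mean, in CPM + 0.01 on a log axis, for e1 (red) and wild type (grey) of batch 1 and batch 2. A306_00007909 and A306_00015279 are lower and A306_00007803 is higher in every e1 bird of either batch, while A306_00002615 overlaps between the groups of batch 2.

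The number of genes called depended on single e1 birds. It was 32 (30 lower, 2 higher) without e1 bird 1, 28 (28 lower, 0 higher) without e1 bird 4 and 156 (143 lower, 13 higher) without e1 bird 3 (edgeR). With a wild-type bird left out it was 47 to 59. Bird e1 3 had the deepest library. It lay a root mean square of 0.523 log2 units from the mean of the other e1 birds, against 0.411 and 0.421 for e1 birds 1 and 4. Wild-type birds lay 0.387 to 0.485 from the mean of the others of their group. That mean holds more birds than in e1, so distances of the 2 groups are not directly comparable. The part of e1 bird 3 in the counts of calls beyond these values was not tested.

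All 58 lower genes kept a negative log2 fold change in each fit with 1 bird left out. Of them, 25 were called lower in every such fit, among them 9 of the 11 genes that fell at least 16-fold and 12 of the 24 that fell 4- to 16-fold. A306_00007909 and A306_00015279 were called in each of these fits. Without e1 bird 3, 53 of the 58 were called and 90 other genes became lower. In 89 of those 90 genes e1 bird 3 was the highest e1 bird, and in 41 it lay above the lowest wild-type bird. Their median log2 fold change was -1.49 without it and -0.88 with all 7 birds. These 90 genes were found by leaving that bird out, so the values are a description.

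**Figure D4:**
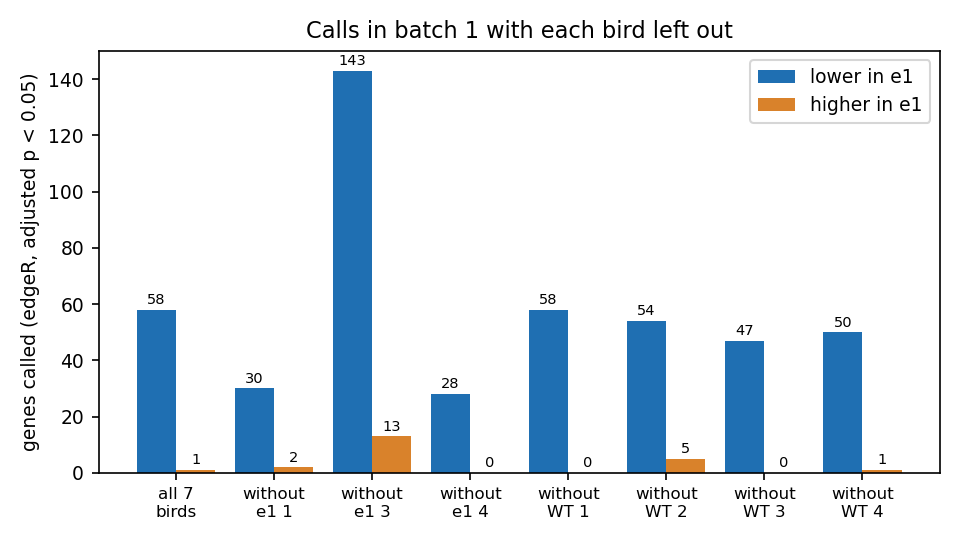
Bars give the genes called lower (blue) and higher (orange) in e1 by edgeR at an adjusted p under 0.05, with all 7 birds of batch 1 and with each bird left out in turn. The number of lower genes is 58 with all birds, 28 to 143 without an e1 bird and 47 to 58 without a wild-type bird.

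The 58 lower genes were then read in batch 2, collected in 2020, in 3 e1 birds (6, 11 and 12) and 5 homozygous wild-type birds (00, 20, 21, 23 and 24) that did not enter their choice. All 58 genes had a negative log2 fold change there, against 47.2% of the 12636 genes tested in batch 2. In 10 of the 58 that change was within 0.5 log2 units of 0. In 42 of the 58 (72.4%) every e1 bird was below every wild-type bird, against 4.14% of all genes tested. The e1 birds of batch 2 passed the test as lower in 32 of the 58 genes, where 0.554% of the genes tested were called lower (edgeR), and as higher in 0. The shared genes are 55.2% of the 58 and 45.7% of the 70 genes called lower in batch 2. The median log2 fold change of the 58 genes was -2.35 in batch 1 and -1.38 in batch 2, in genes chosen in batch 1. Of the 70 genes called lower in batch 2, 69 were tested in batch 1, and their medians were -1.75 in batch 1 and -1.72 in batch 2.

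The share called again in batch 2 followed the size of the change in batch 1, and a larger change is easier to call. Every gene of each size class was below 0 there. Of the 11 genes that fell at least 16-fold, 10 were called lower in batch 2, with a median log2 fold change of -5.24. The next classes had 15 of 24 called with a median of -1.66, 6 of 16 with a median of -1.12, and 1 of 7 with a median of -0.47. Of the 90 further genes called lower when e1 bird 3 was left out, 58 (64.4%) were below 0 in batch 2. Over all genes tested in batch 2 that share was 47.2%. Of the 90, 9 (10.0%) were called lower, against 0.554% of all genes tested, and the median of the 90 was -0.19.

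A306_00007909 stood at 3.39, 7.70 and 7.59 CPM in e1 birds 11, 12 and 6, against 2904 to 8192 CPM in the 5 wild-type birds of batch 2. The level in e1 birds was thus at most 2.02 CPM in batch 1 and at least 3.39 CPM in batch 2, with CPM scaled within each batch. The origin of these few counts was not tested. A306_00015279 had 0, 2 and 1 counts in the same e1 birds, against 51 to 181 counts in wild type. A306_00007803 stood at 4.06, 2.16 and 2.55 CPM in e1 and at 0.0561 to 0.468 CPM in wild type, with a log2 fold change of 3.48 (SE 0.46; adjusted p = 0.00623, edgeR). A306_00002615 stood at 80.2, 94.5 and 108 CPM in e1 and at 57.0 to 92.8 CPM in wild type, so its groups overlapped (log2 fold change 0.46, SE 0.17; adjusted p = 0.265, edgeR).

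**Figure D5:**
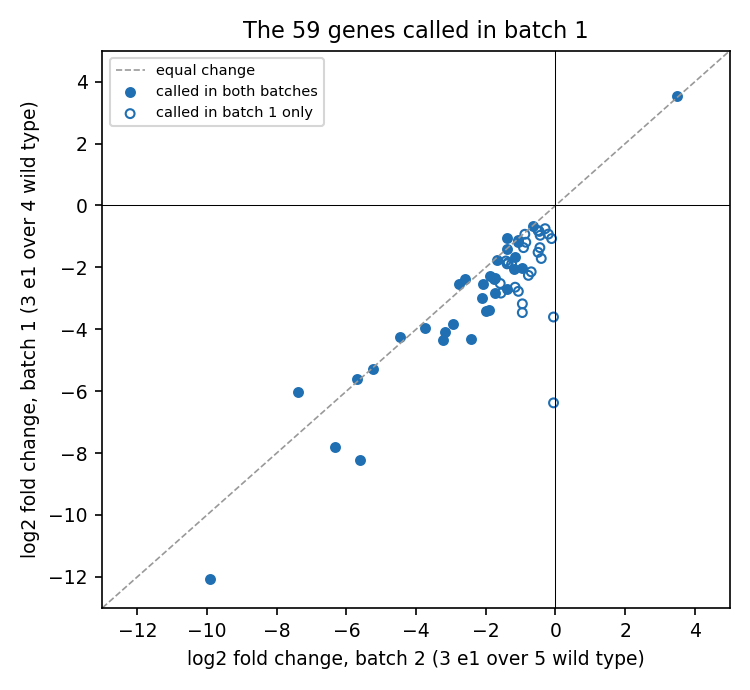
Each point is 1 of the 59 genes called in batch 1, with the log2 fold change (e1 over wild type) of batch 2 on the x axis and of batch 1 on the y axis. Filled points were called in both batches, and all 58 lower genes lie left of 0 on the x axis, although 2 of them called with at least a 4-fold fall in batch 1 lie within 0.5 of 0.

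The difference between the batches was tested directly in the 6 e1 and 9 homozygous wild-type birds. At an adjusted p under 0.05 edgeR called an interaction of genotype and batch in 0 of 12932 genes, while DESeq2 called 4. With edgeR 578 (4.47%) had an unadjusted p under 0.05. Without e1 bird 3 of batch 1 edgeR called 50. Among the 58 lower genes, 21 (36.2%) had an unadjusted interaction p under 0.05 and 51 had the more negative change in batch 1, the smallest adjusted p being 0.451 (edgeR). These genes were chosen in batch 1. For A306_00007909 the log2 fold change of batch 1 was -2.18 relative to that of batch 2 (SE 0.52; unadjusted p = 7.60e-04, adjusted p = 0.942, edgeR).

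In batch 1 a single gene was higher, while in batch 2 116 genes (0.918%) were higher and 70 lower in e1 (edgeR), and the difference between these counts was not tested. The excess of lower genes was not seen in batch 2 at an unadjusted p under 0.05, with 759 lower and 966 higher genes (edgeR). Fitted changes of at least 4-fold were downwards in 54 genes and upwards in 41 there. The 2-fold separation of the groups was met by 35 lower and 27 higher genes. Of those 116, 114 were tested in batch 1, where 103 (90.4%) were above 0, against 52.7% of all tested genes. Their median log2 fold change in batch 1 was 0.53, against 0.01 for all genes. At an unadjusted p under 0.05, 28 of the 114 (24.6%) were higher in batch 1, against 2.30% of all tested genes, but A306_00007803 was the only one called. The total of 186 in batch 2 was 117 when e1 bird 11 was left out, 98 for e1 bird 12 and 76 for e1 bird 6. It was 118 for wild-type bird 20 and 130 to 159 for each other wild-type bird.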

How the data were processed

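The authors deposited raw whole-number counts for 15392 gene tags in 19 birds, together with a DESeq2 comparison (mean signal, log2 fold change, score and p-values per gene) whose model is not stated, per the file headers. Aligner, counter and strand setting were not given in the sources used here. Tags are headed Cliv2.1, and 0 of them matched 22830 RefSeq genes of bColLiv1.pat.W.v2. For that reason 10 marker and pigment gene lists could not be tested.

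Only the 7 birds of batch 1 entered the batch 1 fit: filterByExpr, TMM scaling and the robust quasi-likelihood test of edgeR 4.0.16 (R 4.3.3), with Benjamini-Hochberg adjustment over 12693 genes and calls at an adjusted p under 0.05. CPM uses TMM-scaled library sizes, within each batch. The SE is the log2 fold change divided by the square root of F. Batch 2 and the interaction were fitted alike, without e2 birds and the carrier. Labels do not say whether birds were related.

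The naming rule took, in each direction, the 2 genes with the largest change among those called with a mean log2 CPM of at least 1, or the smallest p where fewer than 2 were called. Members and lists were chosen with earlier results of these data known. Alternatives were DESeq2 1.42.0, limma-voom 3.58.1 with quality weights, other scaling and filters, a minimum log2 fold change of 1, a block by bird number, and each bird left out.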

Additional observations from a re-analysis of the deposited data

How the results depend on the processing

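The 59 genes called in batch 1 became 233 with DESeq2 (206 lower, 27 higher) and 114 with limma-voom and quality weights (107 lower, 7 higher), which called 58 and 56 of the 58 lower genes. With DESeq2 size factors, upper-quartile scaling, either filter or a minimum log2 fold change of 1 it was 52 to 63, and with each bird left out 28 to 156. Whether the numbers shared by e1 and wild-type birds 1, 3 and 4 pair them cannot be settled from 3 same-numbered pairs. Deviations of same-numbered birds from their group means correlated at -0.19, -0.08 and -0.13, and no e1 bird correlated best with its own number. With that number as a replicate block 39 genes were called (36 lower, 3 higher), 30 of them among the 58 lower, and A306_00007803 had an adjusted p of 0.0506 (edgeR). The 186 genes of batch 2 became 490 with DESeq2 and 76 to 159 with a bird left out. The 0 genes of the interaction became 4 with DESeq2 and 0 to 50 with a bird left out, the 50 without e1 bird 3. The difference in mean total counts, e1 minus wild type, was 886024 and ran from -595834 to 1784630 with a bird left out, negative without e1 bird 3 or wild-type bird 2. Those birds had the largest and the smallest library of batch 1, at 23168538 and 15090167 counts. Each named gene kept its direction under the alternatives run. With 3 against 4 birds, few changes in genes under 1 CPM could be resolved.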

Other observations

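A pair of genes fell at least 4-fold in batch 1 and stood within 0.5 log2 units of 0 in batch 2, and both are named here after their values were seen. A306_00008195 had 1, 3 and 2 counts in e1 birds 1, 3 and 4, against 150, 117, 292 and 100 counts in wild-type birds 1 to 4, with a log2 fold change of -6.38 (SE 0.51; adjusted p = 7.05e-04, edgeR). Its counts in batch 2 were 3, 4 and 402 in e1 birds 11, 12 and 6, against 97 to 251 in wild type. The log2 fold change of batch 2, -0.06 (SE 1.14; adjusted p = 0.989, edgeR), thus averages e1 birds 11 and 12, at 0.203 and 0.288 CPM, with e1 bird 6 at 25.01 CPM, which was above every wild-type bird of either batch. Among the birds outside these comparisons, e2 birds 5, 7 and 14, homozygous for the e2 allele, had 4, 1 and 0 counts. The carrier, heterozygous for wild type and e1, had 130. The interaction of batch and genotype was -6.31 (SE 1.79; unadjusted p = 0.00333, adjusted p = 0.942, edgeR).

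A306_00001006 stood at 0.752, 1.44 and 2.07 CPM in e1 birds 1, 3 and 4, against 28.1, 23.02, 12.7 and 5.86 CPM in wild-type birds 1 to 4 (log2 fold change -3.60, SE 0.59; adjusted p = 0.0459, edgeR). Batch 2 gave 8.20, 3.67 and 2.12 CPM in e1 birds 11, 12 and 6 and 2.16 to 7.40 CPM in wild type, so the groups overlapped. Its mean CPM, scaled within each batch, was lower in batch 1 for e1 and higher in batch 1 for wild type. These differences within each genotype were not tested. The interaction of batch and genotype was -3.54 (SE 0.797, unadjusted p = 5.01e-04, adjusted p = 0.9415, edgeR). The batch 1 means were 1.42 ± 0.658 CPM for e1 (SD, n = 3) and 17.4 ± 10.0 CPM for wild type (SD, n = 4). The batch 2 means were 4.66 ± 3.16 CPM for e1 (SD, n = 3) and 4.84 ± 2.05 CPM for wild type (SD, n = 5). The e2 birds 5, 7 and 14 had 17, 9 and 345 counts and the carrier had 135.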
